A study of Mus musculus with 8 samples.

Results

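The cells described here are single enteroendocrine cells, which release hormones from the gut epithelium, sorted by a Tac1 reporter from mouse intestinal organoids that had grown without BMP4 or with BMP4 for 4 days. They were taken from the 2 plates on which untreated wells (columns 1 to 6) and 4 day wells (columns 13 to 24) of the Tac1 line lay side by side, and a well was kept as a cell if it held at least 2000 transcripts outside spike-in and mitochondrial rows. This gave 141 cells of the 1006 kept in the whole series of 3072 wells: 68 untreated and 41 treated cells on plate 1, and 16 and 16 on plate 2. Nearest to the limit, the highest well left out held 1938.5 transcripts and the lowest well kept held 2006.5. The series measured 3 reporter lines (Tac1, Gcg and Gip) on 8 plates by SORT-seq, a plate-based single-cell method in which random bases label each captured RNA molecule.

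All cells were of the C57BL/6 strain and came from organoids with the Tac1 reporter genotype. Live reporter-positive cells were sorted in both groups, one grown without BMP4 and the other with it for 4 days. The sample titles name a Cre line, whose label can stay in a cell that has stopped using the gene, so a sorted cell need not hold Tac1 transcripts. Nothing in the labels ties the 2 plates to separate cultures, and the p-values therefore reflect plate-to-plate spread alone, possibly technical. Condition and plate columns coincide, and their effects cannot be told apart.

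Tac1 encodes the precursor of substance P and neurokinin A, and in the gut it marks enterochromaffin cells, which make serotonin. Sct encodes secretin, a hormone that makes the pancreas release bicarbonate. BMP4 is a ligand of the bone morphogenetic protein pathway: it binds paired serine/threonine kinase receptors, which phosphorylate Smad1, Smad5 and Smad9, and these enter the nucleus with Smad4 and switch on targets such as the Id genes. BMP activity is known to be low in the crypt, where cells are born, and high toward the villus, where they end their life.

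The promoters of 4 genes that the results turn on are shown 5′ to 3′ on the gene's own strand: Id2 and Id3 as BMP targets, Sct as the hormone gene that was higher with BMP4, and Tac1 as the reporter gene, which was lower. Each is the stretch just before the annotated gene in RefSeq's GRCm38.p6 assembly, and capitals mark matches to either of 2 short motifs of Smad binding, GGCGCC (the same on both strands) and GTCTG (or CAGAC on the other strand), which share at most 1 base where they meet. The windows are chr12:25096093-25096342 on the minus strand for Id2, chr4:136143572-136143821 on the plus strand for Id3, chr7:141279175-141279383 on the minus strand for Sct and chr6:7554811-7555060 on the plus strand for Tac1.
Id2: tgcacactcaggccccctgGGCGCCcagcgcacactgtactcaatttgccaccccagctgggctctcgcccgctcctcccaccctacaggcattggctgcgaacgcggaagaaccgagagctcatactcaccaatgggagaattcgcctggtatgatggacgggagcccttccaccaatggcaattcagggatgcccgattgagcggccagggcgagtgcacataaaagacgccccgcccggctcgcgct
Id3: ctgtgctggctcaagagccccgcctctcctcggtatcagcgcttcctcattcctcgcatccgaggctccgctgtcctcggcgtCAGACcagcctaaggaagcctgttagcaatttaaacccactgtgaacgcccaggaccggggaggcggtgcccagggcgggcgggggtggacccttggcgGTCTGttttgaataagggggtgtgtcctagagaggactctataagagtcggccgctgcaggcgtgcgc
Sct: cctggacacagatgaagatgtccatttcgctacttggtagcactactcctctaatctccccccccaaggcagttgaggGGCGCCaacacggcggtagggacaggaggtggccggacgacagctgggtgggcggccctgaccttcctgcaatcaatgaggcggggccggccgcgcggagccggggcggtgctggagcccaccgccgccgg
Tac1: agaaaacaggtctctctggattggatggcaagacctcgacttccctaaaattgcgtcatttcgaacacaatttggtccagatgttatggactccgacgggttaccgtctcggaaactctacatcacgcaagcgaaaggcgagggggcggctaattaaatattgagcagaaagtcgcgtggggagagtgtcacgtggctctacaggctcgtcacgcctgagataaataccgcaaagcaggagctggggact
GGCGCC occurred once in the windows of Id2 and Sct, starting 231 and 131 bases before the annotated gene. The Id3 window held 2 matches to GTCTG or CAGAC, and the Tac1 window held neither motif. Of 27025 mouse promoters, the 250 bases before the start held GGCGCC in 9.54% and GTCTG or CAGAC in 42.1%, so single matches to the second are common. Of the other BMP targets, the Smad6 window of 224 bases held neither motif, although Smad6 rose, and the promoters of Id1 and Smad7 were not used here. A match describes letters and does not show binding.

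Nearly all cells were endocrine by markers, a check that does not include Tac1 itself. By summed markers, 66 of 68 and 16 of 16 untreated cells and 40 of 41 and 16 of 16 treated cells held more transcripts of 12 pan-endocrine genes than of enterocyte, goblet, Paneth and tuft cell genes together. The summed pan-endocrine level was nevertheless lower with BMP4, at 84738 and 85763 CPM without it and 40933 and 46201 CPM with it on plates 1 and 2. CPM is the count of a gene, or of several, summed over the cells of a plate and condition and scaled to one common total per sum. Most of this difference lay in Chgb, a granule protein gene, at 57118 and 55746 CPM without and 18110 and 20256 CPM with BMP4, and 0 of the 12 genes passed the test across all genes. The sums held 461116 and 104241 transcripts without BMP4 and 203090 and 105107 with it. Fewer treated wells passed: 21.4% against 70.8% on plate 1 and 8.33% against 16.7% on plate 2. Median transcripts per spike-in molecule went from 7.45 to 5.54 on plate 1 and from 3.72 to 5.13 on plate 2, in opposite directions. The part of these differences in the results below was not tested. The well barcodes are the same 384 on every plate, and Sst was found in 65 of 68 untreated cells of plate 1 but 0 of 16 of plate 2 after thinning, and in 40 of 41 against 0 of 16 treated cells. How far such transcripts came from the cells themselves was not tested. In summed cells, fewer cells of a type and less RNA per cell cannot be told apart.

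Of 10 tested BMP target genes, Id1, Id2, Id3 and Smad6 rose, 0 fell and 6 did not pass, beside 1.31% higher and 0.578% lower over all 10733 genes tested. Id1 (chr2:152736251-152737410) encodes an inhibitor that pairs with helix-loop-helix transcription factors and keeps them off DNA. It stood at 17.3 and 0 CPM in untreated cells of plates 1 and 2 and at 586 and 304 CPM after 4 days. Id2, which encodes a relative with the same action, stood at 36.9 and 19.2 CPM and reached 970 and 381 CPM. Id3, the third of these inhibitors, stood at 34.7 and 9.59 CPM and reached 748 and 323 CPM. For all 3 genes the treated plates lay above the untreated plates without overlap, and the exact Poisson 95% intervals of the 2 conditions did not overlap on either plate. The share of all genes separated in this way was not counted, here or for the genes below. Treated levels were higher on plate 1 than on plate 2 for each of them.

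In edgeR's quasi-likelihood test, plate was a block and the spread was shared with the Gcg plates. The Gip plate was in the fit but was fitted exactly and gave no residual spread. The log2 level of Id1 rose by 5.54 ± 0.59 (SE derived from the test's F statistic, edgeR adjusted p = 0.0019), Id2 by 4.81 ± 0.43 (0.00058) and Id3 by 4.73 ± 0.43 (0.00058). Smad6, which encodes an inhibitory Smad that dampens the pathway, rose by 5.07 ± 1.02 (adjusted p = 0.025), from 1 and 0 counted transcripts to 11 and 7. With 1 and 0 counts in the untreated cells its fold is poorly fixed. Smad7, its sister, was counted 0 times in both untreated sums and was at 24.6 CPM on plate 1 and 0 on plate 2 after 4 days, and did not pass (adjusted p = 0.14). The median log2 change of the 10 BMP targets was 3.11 (1.55 with the gene that had a group at 0 set to its bound against a floor of 3 counts over the group), against 0.058 over all genes with counts. Skil, a repressor of Smad signalling, was at 1.48 (adjusted p = 0.40), and Ski, Bambi, Tgif1 and Msx1 at -0.13, 0.02, -0.97 and 1.25, none of which passed. Smad6 did not pass without Gcg plate 1 (adjusted p = 0.16), with only the Tac1 plates in the fit (0.069) or without the Kcnq1ot1-rich cells described below (0.061).

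The machinery that receives the signal gave no call. Among receptor, coreceptor and receptor-activated Smad genes, 10 were tested and 0 passed, with a median of 0.15. With 1.89% called over all 10733 genes tested, no call among 10 is near the overall share and says little about these genes. The same applies to the other lists without a call. The smallest p among them belonged to Acvr2a, a type II receptor gene, at 2.16 ± 0.73 (adjusted p = 0.20). The ranking went on with Smad5 at -1.91 (0.29), Smad9 (0.29; counted 0 times in untreated cells and at 14.8 and 19.0 CPM in treated cells), and Neo1, a coreceptor gene, at -0.96 (0.29).

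**Figure D1:**
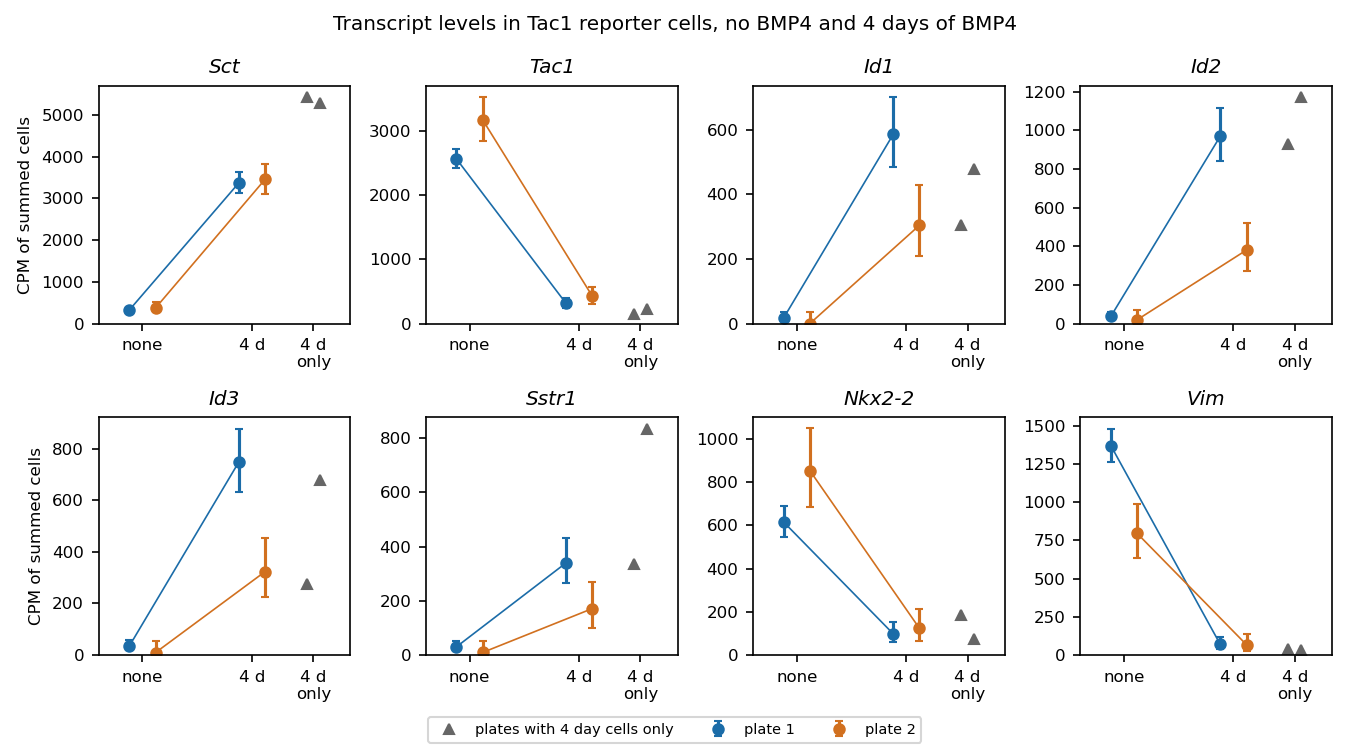
CPM of 8 genes in summed cells of plates 1 and 2 without BMP4 and after 4 days, with exact Poisson 95% intervals (counting error only) and a line joining the conditions of a plate. Triangles are 2 further plates that held 4 day cells only. Sct and the Id genes lie higher after 4 days on both plates, and Tac1, Nkx2-2 and Vim lie lower.

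The hormone genes changed in opposite directions. Sct (chr7:141278329-141279174) stood at 323 and 374 CPM in untreated cells and at 3368 and 3454 CPM after 4 days. The plates lay close to each other in both conditions, and the groups did not overlap. Tac1 (chr6:7555061-7562978) stood at 2568 and 3175 CPM without BMP4 and at 315 and 428 CPM after 4 days. The log2 level of Sct thus rose by 3.52 ± 0.44 (SE derived from the F statistic, edgeR adjusted p = 0.0024) and Tac1 fell by 2.73 ± 0.51 (adjusted p = 0.018). The 2 further Tac1 plates, which held 4 day cells only, were at 5431 and 5277 CPM of Sct and 143 and 222 CPM of Tac1. These sums lay beyond the treated levels of plates 1 and 2 in both cases. On the plate at 5277 CPM, 1 cell held 147 Sct identifiers after the thinning described below, and the next richest held 26. How that plate compares without this cell was not tested. In cells after 24 h of BMP4, plate 1 was at 2737 CPM of Sct and 2051 CPM of Tac1. The separate 24 h plate was at 343 CPM of Sct and 1448 CPM of Tac1. The 24 h sum of plate 1 leaned on few cells: the richest held 51, 40 and 32 Sct identifiers after thinning, and the next held 11.

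Of 12 tested hormone genes 2 rose, 1 fell and 9 did not pass. Pyy, which encodes peptide YY, rose by 4.21 ± 0.81 (adjusted p = 0.020), but from few transcripts: 4 and 0 counts in untreated cells against 29 and 1 in treated cells of plates 1 and 2. After thinning, 2 of 41 and 1 of 16 treated cells held any Pyy. Its call ended without the plate block (adjusted p = 0.074), at a minimum of 1000 transcripts (0.057) and after thinning (0.48). Ucn3, a urocortin gene, was at 0.14 ± 0.39 (adjusted p = 0.92), with 518 and 1065 CPM untreated and 305 and 1579 CPM treated, which moved apart on the 2 plates. Gcg, the proglucagon gene, was at 358 CPM untreated and 34.5 CPM treated on plate 1 and 0 in both conditions on plate 2 (adjusted p = 0.071). Gip, the incretin gene, stood at 15601 and 12423 CPM on plate 1 but 317 and 200 on plate 2, and Sst, the somatostatin gene, at 15953 and 6185 CPM on plate 1 but 9.59 and 0 on plate 2. Neither passed (adjusted p = 0.87 and 0.59), and the plates differed more than the conditions. Cck was at -2.03, Ghrl at -3.13, Iapp at -3.91 and Cartpt at -0.11, none of which passed. Nts was counted 0 times in all 4 sums, as were the untested genes Gal, Gast, Insl5, Npy, Penk and Vip.

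Leaving out either Tac1 plate ended these calls. With plate 1 left out the adjusted p was 0.20 for Sct and 0.31 for Tac1, and with plate 2 left out 0.14 and 0.29, while the log2 changes stayed at 3.48 and 3.48 for Sct and at -2.62 and -2.92 for Tac1. Those fits hold 1 Tac1 plate and assume that it varies like the Gcg plates. The Tac1 line then gives no spread of its own, so a lost call there does not single out a gene. The Id genes had adjusted p = 0.17 to 0.18 without plate 1 and 0.077 without plate 2. Of the genes chosen for naming, 42 passed, and all 42 lost their call in both of these fits without a change of sign. Tac1 also missed the threshold at a minimum of 3000 transcripts per cell (-2.83, adjusted p = 0.075).

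Counted per cell, secretin transcripts were found in more of the treated cells. To make cells comparable, each was thinned to 1500 identifiers, which every kept cell had. At least 5 Sct identifiers were found in 1 of 68 untreated cells of plate 1 (1.47%, Wilson 95% interval 0.26 to 7.87%) and in 19 of 41 treated cells (46.3%, 32.1 to 61.2%). On plate 2 they were found in 0 of 16 untreated cells (up to 19.4%) and in 8 of 16 treated cells (50.0%, 28.0 to 72.0%). The difference was 44.9 and 50.0 percentage points, a mean of 47.4 ± 3.63 (SD, n = 2 plates), and the smallest two-sided exact sign-flip p that 2 plates allow is 0.5. The 2 plates with 4 day cells only gave 14 of 30 (46.7%) and 19 of 45 cells (42.2%). The median treated cell held 4 Sct identifiers on plate 1 and 3.5 on plate 2 against 0 in untreated cells, with maxima of 31 and 18 against 6 and 3. The 2 richest treated cells held 23.1% of the Sct identifiers on plate 1 and 37.8% on plate 2.

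Tac1 was found at any level in 51 of 68 and 12 of 16 untreated cells, 75.0% on each plate, and in 13 of 41 (31.7%) and 5 of 16 (31.2%) treated cells. At least 5 identifiers were found in 22 of 68 and 3 of 16 untreated cells and in 0 of 41 and 0 of 16 treated cells, for which the Wilson intervals reach 8.57% and 19.4%. In cells of the Gcg line, thinned the same way, Tac1 was found in 0 to 4.17% of cells per plate and condition, which is the level in cells sorted for another hormone. No treated cell thus held 5 or more Tac1 identifiers, yet both genes were found together at 1 or more identifiers in 11 of 41 and 4 of 16 treated cells, against 24 of 68 and 5 of 16 untreated cells. At 5 or more of each, both genes were found together in 1 untreated cell and in 0 treated cells. Of the treated cells with at least 5 Sct identifiers, 16 of 19 and 7 of 8 also held Tph1, the gene of the enzyme that starts serotonin synthesis, against 26 of 41 and 9 of 16 of all treated cells. Without the Kcnq1ot1-rich cells described below, Tph1 was found in 22 of 29 (75.9%) and 8 of 9 (88.9%) treated cells, close to the 84.2 and 87.5% of the cells with Sct.

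**Figure D2:**
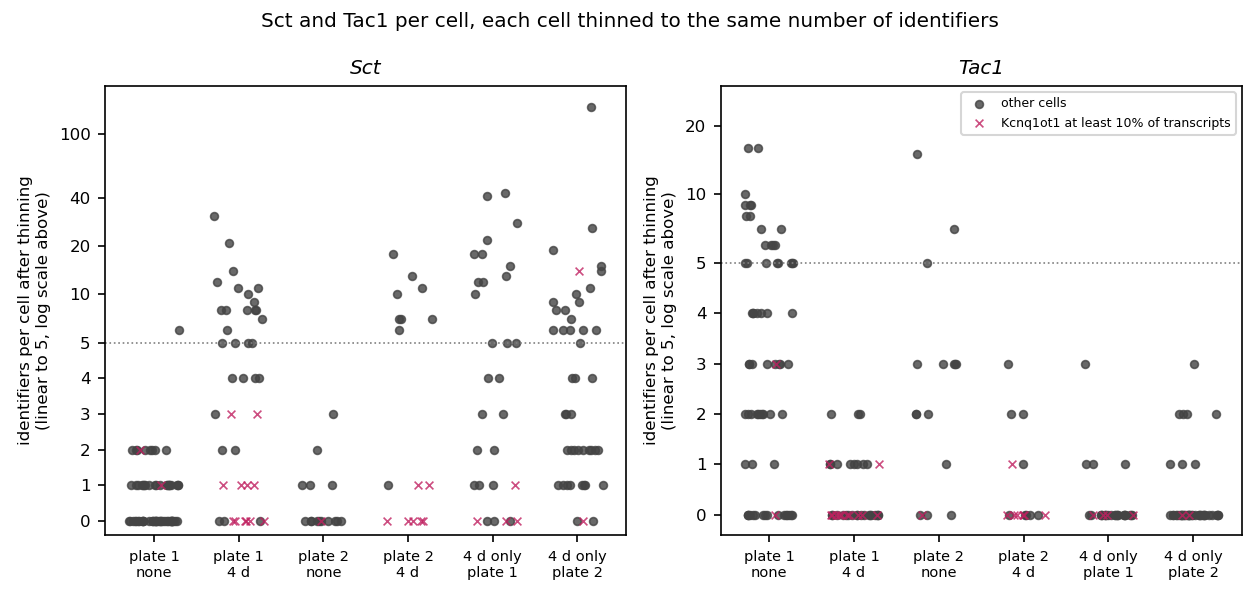
Identifiers of Sct (left) and Tac1 (right) per cell after thinning each cell to 1500 identifiers, on an axis that is linear to 5 and logarithmic above. Points are cells and crosses are cells in which Kcnq1ot1 made up at least 10% of transcripts. The dotted line marks 5 identifiers, which 19 of 41 and 8 of 16 treated cells of plates 1 and 2 reach for Sct and 0 of 41 and 0 of 16 for Tac1.

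On plates 1 and 2, cells rich in 1 nuclear RNA made up more of the treated than of the untreated cells, while the plates with 4 day cells only held few. Kcnq1ot1, a long noncoding RNA transcribed antisense within Kcnq1, made up at least 10% of transcripts in 12 of 41 and 7 of 16 treated cells and in 2 of 68 and 1 of 16 untreated cells. On the plates with 4 day cells only it did so in 4 of 30 and 2 of 45 cells. The class is a range of one value, but few cells lay near its edge: between 5 and 15% there were 1 treated and 2 untreated cells on the 2 plates. The median mitochondrial share of the rich treated cells was 2.27 and 1.78% on plates 1 and 2, against 7.58 and 6.42% in the other treated cells. This did not recur on the plates with 4 day cells only, where it was 10.02 and 9.02% in the 4 and 2 rich cells against 7.46 and 12.0% in the others. Their depth was no lower on plate 2, at a median of 4647 against 4202 transcripts, and was 3600 against 4338 on plate 1. They were poor in Sct, which stood at 339 and 157 CPM in them against 4363 and 5331 CPM in the other treated cells of plates 1 and 2. None of the 12 and 7 held at least 5 Sct identifiers, against 19 of 29 (65.5%) and 8 of 9 (88.9%) of the other treated cells, and on the plates with 4 day cells only 0 of 4 and 1 of 2 did. Id1 was at 59.7 and 26.2 CPM in them against 760 and 463 CPM. Lower levels were not limited to these genes. Chga, a granule protein gene, was at 3513 and 761 CPM in the rich treated cells against 23725 and 35651 CPM in the others. Malat1, another nuclear RNA, was at 5445 and 3107 CPM against 26925 and 8487 CPM. Other genes were higher in the rich treated cells, Vmn2r55 and Cxcr2 among them. Whether the authors counted by strand is not given in the sources used here, so reads of Kcnq1ot1 and of Kcnq1 cannot be told apart.

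Over all genes, 203 of 10733 (1.89%) passed in the comparison of 4 days with none, 141 higher and 62 lower, and 202 of the 203 had one sign on both plates. The test used these same 2 plates and favours genes that go the same way on both, so this is no independent check. With the Kcnq1ot1-rich cells left out, an alternative chosen after seeing the data, 70 of 10324 passed, 47 higher and 23 lower. Of the 141 rises, 138 could still be tested, 47 still passed and 53 were below 1 in log2 size, and their median went from 3.02 to 1.75. Of the 62 falls, 22 still passed and 0 were below 1, with medians of -2.46 and -2.39. Kcnq1ot1 itself went from 2.91 ± 0.50 (adjusted p = 0.011; 2.30 and 0.12 with the single-condition plates added) to 0.44 (0.82), and Tyms, a thymidylate synthase gene, from 2.54 (0.029) to 0.92 (0.87). Vmn2r55, a vomeronasal receptor gene named after its values were seen, went from 3.02 to 0.39, and stood at 49591 and 36107 CPM in the rich treated cells against 1724 and 1166 CPM in the others. Sct, by contrast, was at 3.72 (adjusted p = 0.0014) without these cells, Tac1 at -2.59 (0.012) and Id1 at 5.82, as large as with them.

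**Figure D3:**
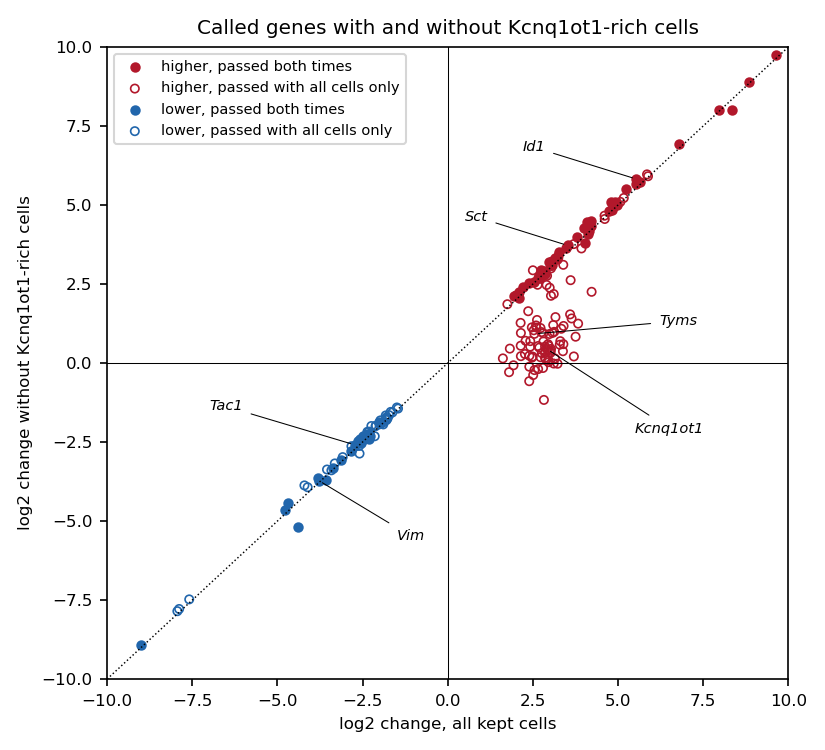
Log2 change (4 days minus none) with all kept cells on the x axis and without Kcnq1ot1-rich cells on the y axis, for the genes that passed and were tested both times (138 rises, 62 falls). Filled points passed both times and the dotted line marks equal values. Sct, Id1, Tac1 and Vim lie near the line, while a second group of rises, Kcnq1ot1 and Tyms among them, lies near 0 on the y axis.

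Among the largest rises, Tbx3, a T-box repressor gene, went from 21.7 and 0 CPM to 433 and 266 CPM (4.86 ± 0.55, edgeR adjusted p = 0.0024). Prss30, a serine protease gene, was counted 0 times in both untreated sums and reached 78.8 and 19.0 CPM, at least 11.0-fold higher than a floor of 3 counts over the group. Its treated level on plate 2 lay under the 28.5 CPM that 3 counts stand for there. On that plate Prss30 was found only in Kcnq1ot1-rich treated cells, at 52.5 CPM against 0 in the other treated cells. S100a10 and S100a14, genes of small calcium-binding proteins, were at 5.65 and 4.79 (adjusted p = 0.0094 and 0.019). Each was counted 1 and 0 times in untreated cells of plates 1 and 2, so both folds are poorly fixed. In treated cells S100a10 was counted 20 and 4 times and S100a14 10 and 4 times. Genes of apolipoproteins and of a transporter were also among the 12 largest rises. Apoa1, the main apolipoprotein of HDL, went from 6.51 and 9.59 CPM to 335 and 495 CPM (5.85 ± 1.26, adjusted p = 0.034), Apoc2, another apolipoprotein gene, was at 4.61 (0.042) and Slc15a1, the peptide transporter PEPT1, at 4.22 (0.021). Serpina1e, a serpin gene whose near-identical paralogs make its counts uncertain, was at 6.80, and Epb4.1l1, a gene of a membrane skeleton protein, at 4.60. Serpina1e was counted 0 and 1 times in untreated cells of plates 1 and 2 and 35 and 34 times in treated cells. Epb4.1l1 was counted 1 and 0 times in untreated and 8 and 5 times in treated cells. The folds of Serpina1e and Epb4.1l1 are therefore poorly fixed as well. Without Gcg plate 1 the adjusted p was 0.091 for Prss30, 0.15 for S100a14, 0.078 for Apoc2 and 0.17 for Epb4.1l1. S100a14 also missed the threshold with only the Tac1 plates in the fit (0.051) and after thinning (0.36), and Epb4.1l1 after thinning (0.34). Without the Kcnq1ot1-rich cells Apoa1 had adjusted p = 0.073, Apoc2 0.065 and Epb4.1l1 0.070, at changes of 5.97, 4.56 and 4.66.

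Markers of other gut cells summed to less than the endocrine ones. Summed enterocyte genes were at 1754 and 825 CPM without BMP4 and 1970 and 1941 CPM with it, and at 4585 and 4806 CPM on the plates with 4 day cells only. Of 12 enterocyte genes 9 had positive values and 2 rose, Apoa1 among them, with a median log2 change of 2.31 (1.91 with genes at their bound). Summed goblet cell genes were at 1989 and 2820 CPM without and 2152 and 2103 CPM with BMP4, and 0 of 8 passed (Fcgbp, a mucus protein gene, was at 1.88, adjusted p = 0.13), with Agr2, Clca1 and Spdef at 0 in all 4 sums. Paneth cell genes summed to 26.0 and 38.4 CPM without and 4.92 and 28.5 CPM with BMP4, and tuft cell genes to 119 and 0 CPM without and 39.4 and 0 CPM with it. None of the 3 tested Paneth and 4 tested tuft cell genes passed. The part of these few transcripts in the rises was not tested.

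The largest falls were of genes with varied roles. Vim, which encodes the intermediate filament vimentin, went from 1371 and 796 CPM to 68.9 and 66.6 CPM (fell by 3.78 ± 0.44, edgeR adjusted p = 0.0024). Nupr1, a stress-induced nuclear protein gene, went from 911 and 1468 CPM to 49.2 and 19.0 CPM (-4.69 ± 0.69, adjusted p = 0.0046). Il17re, a subunit of an interleukin 17 receptor, went from 822 and 969 CPM to 49.2 and 85.6 CPM (-3.57 ± 0.49, 0.0031), and Oit1 from 412 and 480 CPM to 29.5 and 47.6 CPM (-3.36 ± 0.45, 0.0031). In all 4 genes the 2 conditions were separated on both plates, and the plates with 4 day cells only were at 87.5 CPM or below. These genes were named as falls that passed with the same sign on both plates, so the separation on plates 1 and 2 follows from that choice. Gpr56, an adhesion receptor gene, was at 119 and 125 CPM untreated and counted 0 times in both treated sums, at least 12.4-fold lower than the untreated level by the floor of 3 counts. On the plates with 4 day cells only it was at 40.8 and 26.9 CPM. Car2, a carbonic anhydrase gene, was at -4.41, Irs1, an insulin receptor substrate gene, at -4.21, Enho, the gene of the secreted peptide adropin, at -3.81, and BC048546, Dcaf8 and Sidt1 at -4.77, -3.54 and -3.42. Tmem180 was counted 0 times in both treated sums, at least 4.00-fold lower by the same floor, with adjusted p = 0.0497.

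Several of these falls lost their call under other settings. Without Gcg plate 1 the adjusted p was 0.091 for Gpr56 and Car2, 0.11 for BC048546, 0.066 for Enho, 0.091 for Sidt1, 0.17 for Irs1, 0.19 for Dcaf8 and 0.29 for Tmem180. Dcaf8 was at -1.51 (adjusted p = 0.30) with the single-condition plates added. Without the Gip plate Tmem180 had adjusted p = 0.061. After thinning, the adjusted p was 0.085 for Gpr56, 0.14 for Car2, 0.28 for Enho, 0.22 for Sidt1, 0.16 for Irs1 and 0.83 for Dcaf8, whose change was then -1.25. Without the Kcnq1ot1-rich cells it was 0.19 for Irs1, 0.12 for Sidt1, 0.065 for Dcaf8 and 0.093 for Tmem180. Vim, Nupr1, Il17re and Oit1 lost their calls only without plate 1 or plate 2 of the Tac1 line, over 17 alternatives each.

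Genes of the endocrine program moved both ways. Nkx2-2, a homeobox factor of enteroendocrine fate, went from 616 and 854 CPM to 98.5 and 124 CPM, a fall by 2.48 ± 0.37 (edgeR adjusted p = 0.0046). Rfx6, an RFX-family regulator of endocrine differentiation, went from 438 and 326 CPM to 133 and 57.1 CPM, a fall by 1.80 ± 0.40 (adjusted p = 0.039; 0.10 without Gcg plate 1 and 0.070 without the Kcnq1ot1-rich cells). Sox4, an SRY-box factor of endocrine progenitors, went from 143 and 86.3 CPM to 842 and 590 CPM, a rise of 2.85 ± 0.36 (adjusted p = 0.0024). These 3 were the calls among 24 tested endocrine transcription factors, 1 higher and 2 lower, and the list's median was -0.55 (-0.36 with its bounded gene). Pax4, a paired box factor, went from 28.2 and 9.59 to 123 and 152 CPM and just missed the threshold (adjusted p = 0.050). Fev, an ETS factor of serotonin-making cells, was at -0.93 without passing (adjusted p = 0.27).

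Of 11 tested serotonin genes 5 had positive and 6 negative values, with 1 call. Slc18a2, the vesicular monoamine transporter VMAT2, went from 184 and 307 CPM to 19.7 and 28.5 CPM, a fall by 3.08 ± 0.57 (edgeR adjusted p = 0.016; 0.077 without Gcg plate 1, 0.11 without the Kcnq1ot1-rich cells and 0.12 after thinning). The other 10 did not pass. Ddc, the decarboxylase that makes serotonin from its precursor, was at 2954 and 2513 CPM untreated and 1305 and 904 CPM treated (adjusted p = 0.13), and the cofactor genes Gch1 and Qdpr were at -1.38 and -1.60 (0.067 and 0.057). Tph1, named after its values were seen, was at 1505 and 892 CPM untreated and 1738 and 1665 CPM treated (0.77, adjusted p = 0.37). The list's median was -0.059, against 0.058 over all genes.

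**Figure D4:**
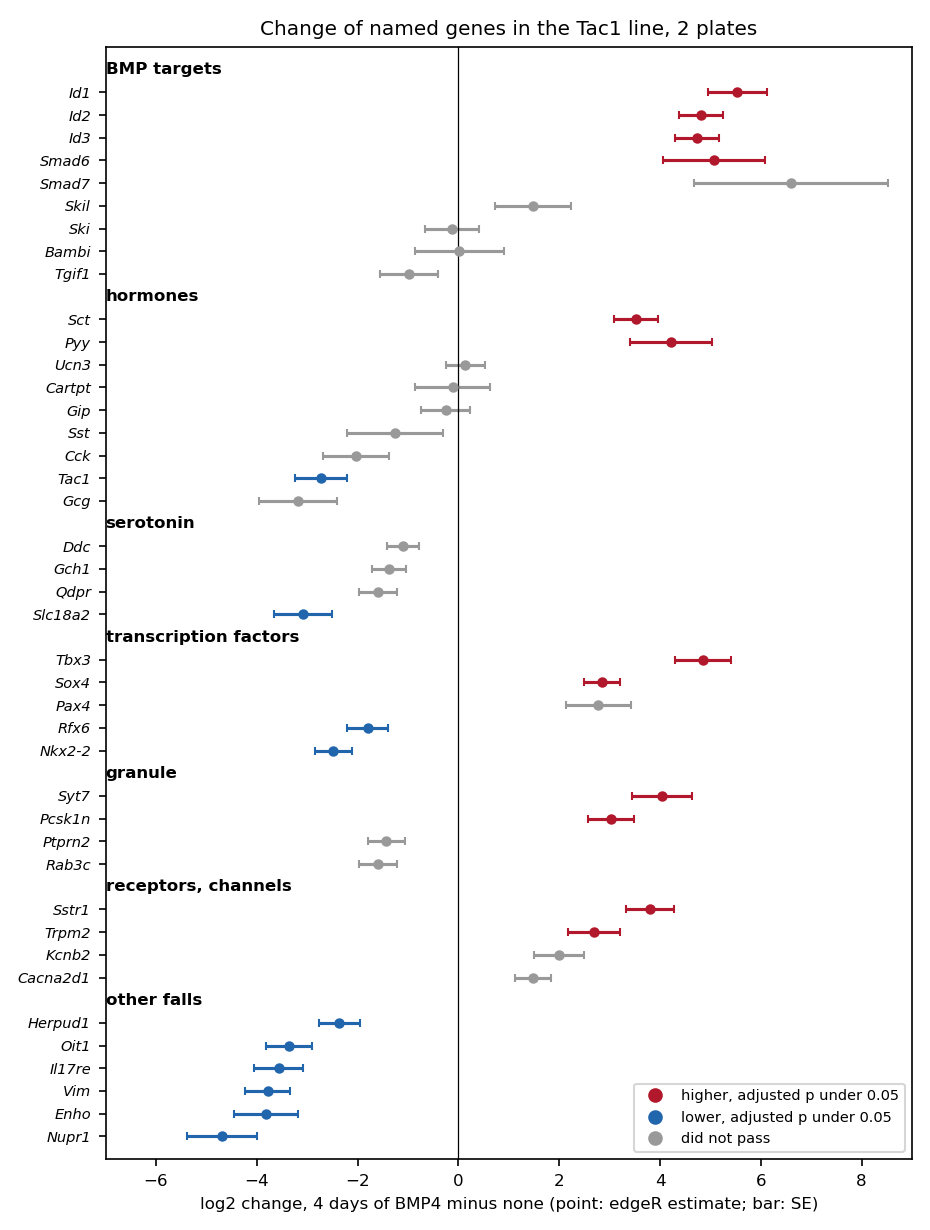
Log2 change after 4 days of BMP4 on 2 plates, for genes grouped by role. Points are edgeR estimates and bars the SE derived from the test's F statistic. Red and blue mark genes that passed higher and lower, and grey those that did not. Id1, Id2, Id3 and Smad6 rose among BMP targets, Sct and Pyy among hormones, and Tac1, Slc18a2, Rfx6 and Nkx2-2 fell; Smad7 had 0 untreated counts, so its fitted value is no measured fold.

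Among 25 tested genes of the secretory granule, 2 rose and none fell. Syt7, a calcium sensor of vesicle release, went from 91.1 and 0 CPM to 758 and 580 CPM (4.03 ± 0.59, edgeR adjusted p = 0.0046). Pcsk1n, the gene of proSAAS, an inhibitor of prohormone convertase 1, went from 121 and 67.2 CPM to 729 and 618 CPM (3.03 ± 0.45, adjusted p = 0.0049). The rest had mostly negative values, with a list median of -0.52: Chgb, the chromogranin B gene, was at 57118 and 55746 CPM untreated and 18110 and 20256 CPM treated without passing (-1.33 ± 0.44, adjusted p = 0.19). Chga, its sister, named after its values were seen, was at 0.04 (adjusted p = 1.00). Rab3c and Ptprn2, both genes of granule proteins, were at -1.59 and -1.43 (0.057 and 0.084), and Pam, the gene of the enzyme that amidates peptide hormones, at -0.84 (0.27). Syt7 missed the threshold without Gcg plate 1 (0.066).

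Of 16 tested sensing receptors and channels, 2 rose. Sstr1, a somatostatin receptor gene, went from 30.4 and 9.59 CPM to 340 and 171 CPM (3.80 ± 0.47, edgeR adjusted p = 0.0024), and Trpm2, a cation channel gene, from 39.0 and 48.0 CPM to 251 and 209 CPM (2.69 ± 0.52, adjusted p = 0.020; 0.079 without Gcg plate 1 and 0.14 after thinning). Kcnb2, a potassium channel gene, and Cacna2d1, a calcium channel subunit gene, were at 2.00 and 1.48 (0.065 and 0.054). Trpa1, the irritant channel of enterochromaffin cells, named after its values were seen, was at 1746 and 2015 CPM untreated and 458 and 1027 CPM treated (adjusted p = 0.13).

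Villus tip genes were higher in value in 5 of 5 tested. Nt5e, which encodes the ectonucleotidase CD73, went from 45.5 and 19.2 CPM to 271 and 105 CPM (2.74 ± 0.45, edgeR adjusted p = 0.0087; 0.076 without Gcg plate 1), and with Tbx3 it was 1 of 2 that rose. Klf4, a factor of differentiated epithelium, went from 52.0 and 0 to 246 and 143 CPM (adjusted p = 0.12). Crypt and stem cell genes held no call among 9 tested: Sox9 and Cd44 were at -1.17 and -1.11 (adjusted p = 0.32 and 0.33). Of 5 tested proliferation genes only Tyms passed, and its change was lost without the Kcnq1ot1-rich cells, as given above. Tyms also had adjusted p = 0.16 without Gcg plate 1 and 0.61 after thinning.

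Stress lists gave 2 calls. Herpud1, which helps clear misfolded proteins from the endoplasmic reticulum, was the 1 of 16 tested genes of the unfolded protein response that fell, from 308 and 288 CPM to 59.1 and 38.1 CPM (-2.36 ± 0.40, edgeR adjusted p = 0.010; 0.066 without Gcg plate 1). Hspb1, a small heat shock protein gene, was the 1 of 11 tested early response and heat shock genes that rose, from 6.51 and 0 CPM to 133 and 162 CPM (4.96 ± 0.90, adjusted p = 0.015; 0.085 without Gcg plate 1 and 0.061 after thinning). Fos and Egr1, which respond to handling of cells, were at -0.63 and -0.75 (0.54 and 0.51). None of 10 interferon and antigen genes passed, with Isg15 at 2.37 (0.18), and at -1.65 without the Kcnq1ot1-rich cells (0.85). Of 4 nuclear RNA genes only Kcnq1ot1 passed: Neat1 was at -1.99 (0.062), Malat1 at 0.48 (0.62) and Meg3 at -1.10 (0.59).

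The last comparison asks whether the Tac1 line answered 4 days of BMP4 otherwise than the Gcg line, by testing the difference of the 2 responses. By the marker rule above, 18.8 and 28.0% of untreated and 13.7 and 33.3% of treated cells of Gcg plates 1 and 2 were endocrine. In the Tac1 groups it was 97.1% or more. The part of this in the comparison was not tested. With only cells called endocrine, Gcg plate 2 had 8 treated cells, under the minimum of 10 for a sum. In edgeR 0 of 10733 genes passed, while 873 (8.13%) were under 0.05 before adjustment, and DESeq2 gave 25 calls. For Sct the Tac1 response minus the Gcg response was -0.31 (adjusted p = 0.94), for Id1 -0.14 (1.00), for Id2 1.05 (0.64), for Id3 -0.44 (0.90) and for Tac1 -1.43 (0.70). Tac1 was found in few cells of the Gcg line, as given above, so its response there, and with it the difference, is poorly fixed. Ucn3, at 5 and 11 counts in untreated and 0 in treated cells of the Gcg plates, has no measured fold there, and its difference did not pass (adjusted p = 0.35). Vim was at -3.78 in the Tac1 line and -0.58 in the Gcg line, and the difference of -3.21 did not pass (adjusted p = 0.12). Without Gcg plate 2 the test called 93 genes.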

How the data were processed

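RNA of single sorted cells was measured by SORT-seq on 384-well plates with spike-in RNA and read as 75-base pairs, per the labels' protocols. The submitters' processing notes name BWA 0.6.2-r126 and the mm10 build. The tool, annotation and strand setting used for counting were not found in the labels or file headers. The deposited tables hold expected counts for each gene in each well; their values fit a correction for molecules that drew the same identifier. Undoing it with a pool of 4096 identifiers returned whole numbers within 0.01. The labels describe a 4-base identifier, which allows fewer than 4096; the conflict was not resolved, and whole-identifier and thinned counts rest on the pool that the values fit.

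Cells were summed per plate and condition (at least 10 cells, 14 sums of 5 plates), and the sums were rounded. The sums covered 16115 genes listed both among the files of the Tac1 line and among those of the other lines, though not in every file. A gene that a file did not list was taken as uncounted there. edgeR 4.0.16 (R 4.3.3; filterByExpr, TMM, quasi-likelihood F test) was fitted with plate as a block and condition within line, leaving 3 residual degrees of freedom, with Benjamini-Hochberg adjustment over all genes. A gene passed under an adjusted p of 0.05. The block is part of the design, since both conditions lay on each plate; residuals of the 2 conditions of a Tac1 plate correlated at 0.095. Poisson and Wilson intervals (95%) and the floor of 3 counts cover counting error only. No doublet caller was run.

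The text names the 12 greatest rises and 12 greatest falls of genes past the threshold (mean log2 CPM 5 or more, one sign on both plates, without predicted, Rik and ribosomal genes), tested hormones and BMP targets, and up to 4 genes of every other list by p. Members and lists were chosen with earlier results of these data known. Some members of the enterocyte list are not reported here. The main Tac1 comparison was tested on 1 simulated data set, with changes set in well-counted genes. Of 50 genes each, 31 passed at a log2 change of 2, 22 at -2, 50 at 3 and 37 at -3. Of 148 calls 8 were false. Falls were missed more often than rises there. Alternatives were DESeq2 1.42.0, RLE scaling, no filter, other depth limits, thinned cells, whole identifiers, endocrine cells only, other designs and single plates left out.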

Additional observations from a re-analysis of the deposited data

How the results depend on the processing

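The count of genes that passed at 4 days (203) was within 1.5 times under RLE scaling, DESeq2 (229), a minimum of 1000 or 3000 transcripts, thinning, whole identifiers and with the single-condition plates. It was 483 with no filter, 482 with only the Tac1 plates in the fit (488 over every gene of their files), 444 in cells called endocrine by markers and 70 without Kcnq1ot1-rich cells. Leaving out single plates it ran from 0 to 392: 0 without plate 1 or plate 2 of the Tac1 line in edgeR (1257 and 1067 with an unadjusted p under 0.05), 77 when Gcg plate 1 was dropped, 392 when Gcg plate 2 was. Without the plate as replicate block 263 passed, and among named genes that ended the calls of Irs1 (0.081) and Pyy (0.074). For the difference between the Tac1 and Gcg lines, 0 genes became 4 with RLE scaling, 25 with DESeq2, 113 with no filter, 3 with no replicate block, 4 at a minimum of 1000 transcripts, 15 after thinning and 47 in cells called endocrine, and ran from 0 to 93 without single plates. Sct ran from 3.47 to 3.53 and Tac1 from -2.92 to -2.62 without single plates, losing their calls only without a Tac1 plate, and Tac1 was at -2.83 without a call at a minimum of 3000 transcripts. The difference in cells with at least 5 Sct identifiers (47.4 points) was 35.0 at a limit of 1, 21.0 at 10, 42.2 without thinning and 76.4 without Kcnq1ot1-rich cells, and ran from 44.9 to 50.0 over single plates. The cause of these shifts was not tested. Of the named genes that passed, thinning ended the calls of 13 of 39, leaving out Kcnq1ot1-rich cells 12 of 42 and leaving out Gcg plate 1 22 of 42. No named gene that passed changed sign. With 16 cells in each condition of plate 2, 3 counts stand for 28.8 CPM untreated and 28.5 CPM treated there, which limits what low genes can show.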
